A study of Homo sapiens with 12 samples.

Results

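The SR proteins are a family of splicing factors encoded by the SRSF genes, and 10 of these genes (SRSF1, SRSF2, SRSF3, SRSF4, SRSF5, SRSF6, SRSF7, SRSF9, SRSF10 and SRSF11) are described here. They were taken from the gene count matrix by matching Ensembl identifiers to these symbols, which found all 10 among 32269 genes, and all 10 passed the filter on low counts. The study sequenced RNA from the human gastric cancer cell lines MKN1 and AGS, both labelled wild type. MKN1 cells treated with cantharidin sodium, untreated MKN1 cells, AGS cells treated with cantharidin sodium and untreated AGS cells gave 3 libraries each, which the design text calls biological replicates. Each line is a single established culture line, and the sources used here give neither the dose nor the length of treatment. The question for each gene was whether its RNA level differed between treated and untreated cells of each line, whether that difference itself differed between the lines, and whether the lines differed from each other.

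SR proteins carry 1 or more RNA recognition motifs and a tail rich in arginine and serine repeats, the RS domain. They bind enhancer sequences in exons and help to bring the U1 particle to the 5′ splice site and the U2AF dimer to the 3′ splice site. The kinases of the SRPK family phosphorylate the RS domain in the cytoplasm, those of the CLK family do so in the nucleus, and protein phosphatases 1 and 2A remove the phosphates. Cantharidin, from which the sodium salt is derived, is a known inhibitor of protein phosphatases 2A and 1. SR genes also limit their own RNA, since high levels of the protein favour inclusion of a poison exon that sends the transcript to nonsense-mediated decay. The counts are per gene, so transcripts that make protein and transcripts marked for decay are added together. GENCODE release 29 annotates at least 1 decay transcript for each of the 10 genes, with most for SRSF7, where 6 of 12 transcripts have that biotype.

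In GENCODE release 29 on GRCh38, chromosome 1 holds SRSF4 (ENSG00000116350) at chr1:29147743-29181987 on the minus strand, SRSF10 (ENSG00000188529) at chr1:23964804-23980927 on the minus strand and SRSF11 (ENSG00000116754) at chr1:70205682-70253052 on the plus strand. Chromosome 17 holds SRSF1 (ENSG00000136450) at chr17:58003360-58007346 on the minus strand and SRSF2 (ENSG00000161547) at chr17:76734115-76737374 on the minus strand. The others are SRSF7 (ENSG00000115875) at chr2:38743599-38751494 on the minus strand and SRSF3 (ENSG00000112081) at chr6:36594353-36605600 on the plus strand, SRSF9 (ENSG00000111786) at chr12:120461668-120469793 on the minus strand and SRSF5 (ENSG00000100650) at chr14:69726900-69772005 on the plus strand, and SRSF6 (ENSG00000124193) at chr20:43457928-43464247 on the plus strand. SRSF1, SRSF9 and SRSF10 each have 1 annotated processed pseudogene (SRSF1P1, SRSF9P1 and SRSF10P1), and reads shared with it could have been split in counting.

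Library totals lay between 28604966 and 51604215 counts, and the 10 genes together held 0.145% to 0.262% of them. Levels are given as CPM, a gene's counts relative to the library's total, adjusted with TMM factors. Both lines expressed epithelial keratins, and the epithelial markers EPCAM, CLDN7 and CLDN4 were at far lower levels in MKN1 than in AGS. The 8 epithelial markers summed to 5332 to 6917 CPM in treated MKN1, 5582 to 6395 CPM in untreated MKN1, 4671 to 5171 CPM in treated AGS and 4887 to 5948 CPM in untreated AGS cells. KRT8, KRT18 and KRT19 carried most of these sums. EPCAM, an epithelial adhesion protein, was at 19.8 to 23.8 CPM in treated and 17.0 to 27.0 CPM in untreated MKN1 cells, against 425 to 455 CPM in treated and 421 to 426 CPM in untreated AGS cells. The tight junction gene CLDN7 was at 4.10 to 6.12 CPM in treated and 8.80 to 10.9 CPM in untreated MKN1 cells, against 255 to 294 CPM in treated and 237 to 268 CPM in untreated AGS cells, and CLDN4 showed the same order of lines. The 7 squamous markers summed to 4806 to 6684 CPM in treated and 4512 to 8780 CPM in untreated MKN1 cells, against 105 to 143 CPM in treated and 178 to 211 CPM in untreated AGS cells. Of the 12 fibroblast, endothelial and blood cell markers in the matrix, 10 were under 1 CPM in every treated AGS library, 6 in every untreated AGS library and 7 in every library of each MKN1 group. The summed level of these 12 markers was 1012 to 1473 CPM in treated and 1056 to 1594 CPM in untreated AGS cells, mostly from LYZ, and 14.3 to 17.1 CPM in treated and 17.4 to 23.7 CPM in untreated MKN1 cells. The haemoglobin gene HBB was at 0 to 0.0755 CPM in treated AGS cells and at 6.62 to 18.6 CPM in untreated AGS cells, and the part of these markers in the results was not tested.

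Replicate 3 of the untreated MKN1 cells stood apart from the other two libraries of its group. A chi-square of its counts against theirs was 81.0 and 69.7 per degree of freedom, against 13.8 between replicates 1 and 2. Among the SR genes it was below both other untreated libraries for 9 of 10 (90%), against 40.8% of all 20280 genes tested. The median log2 ratio of replicate 3 to the mean of replicates 1 and 2 was -0.68 over the 10 SR genes and -0.016 over all tested genes. Replicates 1 and 2 were above all treated MKN1 libraries for 7 of 10 SR genes (70%), against 21.8% of all tested genes. The SR gene results that rest on the untreated MKN1 cells are therefore given with and without replicate 3. That library stood apart partly by the SR gene values that are tested, so p-values without it are not independent support for those genes. The treated MKN1 libraries also varied more among themselves than those of AGS, with a chi-square of 41.6 to 65.5 per degree of freedom between pairs, against 9.78 to 16.4 in treated AGS cells.

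The promoters of 4 genes are shown, chosen by the RNA levels of the genes. SRSF6 and SRSF7 had the most negative log2 fold changes in MKN1 cells, though neither was called over 12 libraries. SRSF3 and SRSF9 were the genes called in AGS cells. A link between promoter motifs and these changes was not tested. Each sequence is the RefSeq window from 250 bases before to 50 bases after the gene's start in GRCh38.p14, read 5′ to 3′ on the gene's strand. Capitals mark the CCAAT box (CCAAT, or ATTGG for the other strand) and the GC box (GGGCGG, or CCGCCC for the other strand).
SRSF6, chr20:43457646-43457945, plus strand: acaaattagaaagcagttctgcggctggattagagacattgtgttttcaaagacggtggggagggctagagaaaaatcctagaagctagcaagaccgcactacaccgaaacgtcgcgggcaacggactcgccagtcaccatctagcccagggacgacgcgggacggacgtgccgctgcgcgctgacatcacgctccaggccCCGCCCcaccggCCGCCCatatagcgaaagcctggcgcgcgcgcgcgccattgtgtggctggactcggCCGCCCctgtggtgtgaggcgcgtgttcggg
SRSF7, chr2:38751445-38751744, minus strand: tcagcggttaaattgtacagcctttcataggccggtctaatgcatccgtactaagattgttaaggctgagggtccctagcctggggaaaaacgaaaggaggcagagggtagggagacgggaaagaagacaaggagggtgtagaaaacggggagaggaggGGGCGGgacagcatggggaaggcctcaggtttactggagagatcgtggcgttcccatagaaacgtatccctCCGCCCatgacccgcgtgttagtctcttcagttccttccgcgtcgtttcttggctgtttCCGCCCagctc
SRSF3, chr6:36594112-36594411, plus strand: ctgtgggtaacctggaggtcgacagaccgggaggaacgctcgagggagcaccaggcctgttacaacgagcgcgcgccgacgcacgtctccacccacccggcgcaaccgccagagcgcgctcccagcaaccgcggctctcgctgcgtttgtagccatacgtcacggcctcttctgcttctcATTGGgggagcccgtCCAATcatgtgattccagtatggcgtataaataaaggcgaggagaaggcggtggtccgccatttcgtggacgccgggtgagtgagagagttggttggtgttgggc
SRSF9, chr12:120469699-120469998, minus strand: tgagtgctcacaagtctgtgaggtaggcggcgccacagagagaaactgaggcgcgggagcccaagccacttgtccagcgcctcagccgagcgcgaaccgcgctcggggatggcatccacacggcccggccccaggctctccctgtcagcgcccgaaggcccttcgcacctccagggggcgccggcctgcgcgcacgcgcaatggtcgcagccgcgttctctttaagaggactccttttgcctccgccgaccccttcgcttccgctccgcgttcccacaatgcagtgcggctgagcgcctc

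RefSeq windows matched 9 of the 10 genes. SRSF6 and SRSF7 held 3 GC boxes each, and SRSF4 held 2, so that 3 of 9 SR promoters had one, against 45.0% of all 35116 promoters in the table. SRSF3 alone held CCAAT boxes, 1 on each strand, against 34.6% of all promoters with at least 1. SRSF3 was also the single SR promoter of 9 with the TATA box letters TATAAA on either strand, which 11.5% of all promoters held. The cyclic AMP response motif TGACG, on either strand, was in the windows of SRSF1, SRSF3, SRSF5 and SRSF11, and in 24.6% of all promoters. The E-box CACGTG was in none of the 9 and in 7.26% of all promoters. SRSF9 held none of the 5 motifs.

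In AGS cells treated with cantharidin sodium, 2 of the 10 SR genes fell and none rose. SRSF9, a small SR protein also called SRp30c that takes part in splice site choice, fell to a fold of 0.665. SRSF3, also called SRp20, the smallest SR protein and an adaptor for the mRNA export receptor NXF1, fell to a fold of 0.701. The share of all tested genes called was 20.8% in either direction and 11.6% lower, so 2 lower genes of 10 were not far from that background. SRSF11 also had an unadjusted p under 0.05. In bulk RNA, fewer cells with a transcript and less of it per cell cannot be told apart. The median log2 fold change was -0.037 over the SR genes and -0.011 over all tested genes.

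SRSF9 had 92.3, 88.3 and 92.3 CPM in treated AGS cells, against 132, 128 and 149.5 CPM in untreated AGS cells. All treated libraries lay below all untreated ones. Its log2 fold change was -0.59 with an SE of 0.10 (adjusted p = 0.00262) by edgeR's quasi-likelihood test, with a 95% interval of -0.81 to -0.37. Of the exon bases of SRSF9, 46.2% overlap GATC on the opposite strand, and the library kit does not mark strand, so reads from the overlap cannot be told apart. GATC itself averaged 67.0 ± 3.42 CPM in treated and 66.8 ± 2.62 CPM in untreated AGS cells, a log2 fold change of 0.003 (adjusted p = 0.984).

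SRSF3 had 399, 363 and 397 CPM in treated AGS cells, against 562, 515 and 576 CPM in untreated AGS cells. The groups did not overlap, and the log2 fold change was -0.51 with an SE of 0.13 (adjusted p = 0.014) in the edgeR fit, with a 95% interval of -0.79 to -0.24. The call was lost without untreated AGS replicate 3 (adjusted p = 0.058) and without treated AGS replicate 2 (adjusted p = 0.0621), at log2 fold changes of -0.48 and -0.47.

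SRSF11 (p54), which interacts with the U2AF dimer, and SRSF5 (SRp40) had higher levels in treated AGS cells without passing the test over 12 libraries. SRSF11 had 287, 297 and 305 CPM in treated AGS cells, against 236, 227 and 205 CPM in untreated AGS cells, a log2 difference of 0.41 with an SE of 0.19 (adjusted p = 0.137). SRSF5 had 344, 346 and 359 CPM in treated AGS cells, against 289, 293 and 286 CPM in untreated AGS cells, a log2 difference of 0.27 with an SE of 0.17 (adjusted p = 0.273). In both genes every treated library was above every untreated one. The fit shares its estimate of spread over all groups, and both genes were called higher when untreated MKN1 replicate 3 was left out, with an adjusted p of 0.0487 for SRSF11 and 0.0258 for SRSF5. When the AGS libraries were fitted alone, 5 SR genes were called: SRSF11 and SRSF5 higher, and SRSF9, SRSF3 and SRSF4 lower. In that fit 48.2% of all tested genes were called, a share close to that of the SR genes.

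The other 6 genes did not pass the test in AGS. SRSF1 (ASF/SF2), the founding SR protein and a known oncoprotein, had 351, 362 and 382 CPM in treated AGS cells, against 421, 408 and 386 CPM in untreated AGS cells. Those groups did not overlap, but the log2 difference was -0.15 with an SE of 0.16 (adjusted p = 0.531). SRSF4 (SRp75), the largest of the classical SR proteins, averaged 89.7 ± 1.57 CPM in treated and 99.2 ± 3.32 CPM in untreated AGS cells (SD, n = 3 each), also without overlap, at a log2 difference of -0.14 with an SE of 0.14 (adjusted p = 0.499). SRSF2 (SC35), a marker of nuclear speckles, averaged 245 ± 12.6 CPM in treated and 262 ± 10.6 CPM in untreated AGS cells. SRSF6 (SRp55) averaged 317 ± 15.7 CPM in treated and 302 ± 12.0 CPM in untreated AGS cells. SRSF7 (9G8), which carries a zinc knuckle and like SRSF3 serves as an export adaptor, averaged 178 ± 7.74 CPM in treated and 176 ± 9.06 CPM in untreated AGS cells. SRSF10 (SRp38), a splicing repressor in its dephosphorylated form during heat shock and mitosis, averaged 197 ± 36.4 CPM in treated and 178 ± 22.6 CPM in untreated AGS cells. For SRSF2, SRSF6, SRSF7 and SRSF10 the groups overlapped, with log2 differences of -0.099, 0.070, 0.024 and 0.14 in that order. In all, 6 of 10 SR genes had groups that did not overlap in AGS, 2 above and 4 below, against 52.4% of all tested genes.

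**Figure D1:**
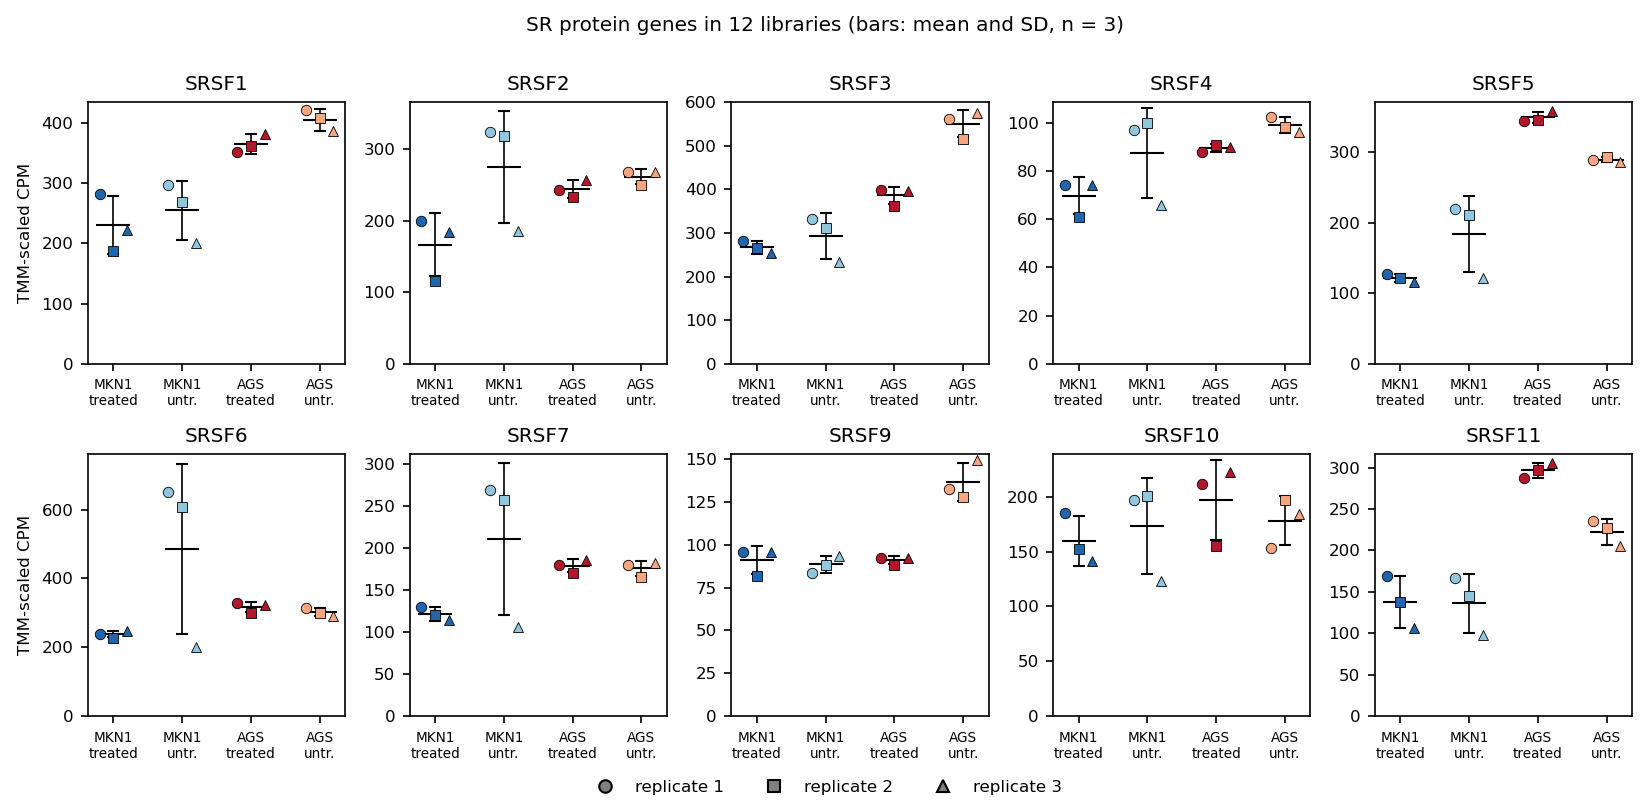
Level of each of the 10 SR genes in the 12 libraries, as TMM-scaled CPM on a linear axis from 0, by group, with symbols for replicates and bars for mean and SD (n = 3). SRSF9 and SRSF3 lie lower in treated than in untreated AGS cells, and replicate 3 of untreated MKN1 cells lies far below replicates 1 and 2 for SRSF6 and SRSF7.

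In MKN1 cells, no SR gene passed the test over all 12 libraries, although 8 of 10 log2 fold changes were negative and 5 had an unadjusted p under 0.05. The share of all tested genes called in MKN1 was 6.7%. DESeq2's Wald test called 4 SR genes lower (SRSF2, SRSF5, SRSF6 and SRSF7), where it called 7.1% of all tested genes lower. The same 4 were called lower with a trend on GC content and length removed, where 5.68% of all tested genes were lower. With limma voom 0 SR genes were called, against 7.89% of all tested genes. Without untreated replicate 3, which the SR gene values had helped to set apart, 5 SR genes were called lower: SRSF6, SRSF7, SRSF2, SRSF5 and SRSF4. In that fit 7.6% of all tested genes were called lower and 15.1% in either direction. The median log2 fold change of the SR genes was -0.24 with all libraries and -0.41 without that library, against 0.006 over all tested genes with all libraries. No SR gene had groups that did not overlap, against 21.4% of all tested genes.

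SRSF6, with the most negative log2 difference of the 10 in MKN1, had 238, 228 and 248 CPM in treated MKN1 cells, against 651, 606 and 202 CPM in untreated MKN1 cells. Replicates 1 and 2 of the untreated cells were above every treated library, and replicate 3 was below all of them. The log2 difference was -1.03 with an SE of 0.30 (adjusted p = 0.057) with all libraries and -1.40 with an SE of 0.094 (adjusted p = 2.86e-05) without untreated replicate 3, a fold of 0.378.

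SRSF7 followed the same order of libraries, with 130.1, 120 and 114 CPM in treated MKN1 cells, against 269, 257 and 106 CPM in untreated MKN1 cells. Untreated replicates 1 and 2 lay above all treated libraries and replicate 3 below them. The log2 difference was -0.80 with an SE of 0.25 (adjusted p = 0.0733) with all libraries and -1.12 with an SE of 0.096 (adjusted p = 8.99e-05) without untreated replicate 3, a fold of 0.461. Both promoters shown above for these genes carry 3 GC boxes, as a description of their sequence.

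SRSF2 had 199.5, 116 and 185 CPM in treated MKN1 cells, against 324, 318 and 186 CPM in untreated MKN1 cells. Its untreated replicate 3 lay inside the treated range. The log2 difference was -0.73 with an SE of 0.21 (adjusted p = 0.0608) with all libraries and -0.95 with an SE of 0.17 (adjusted p = 0.00444) without that library. MFSD11, on the opposite strand, overlaps 36.7% of the exon bases of SRSF2, and averaged 16.7 ± 2.24 CPM in treated and 22.2 ± 8.77 CPM in untreated MKN1 cells, with a log2 difference of -0.41 (adjusted p = 0.324).

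SRSF5 had 127, 121 and 115 CPM in treated MKN1 cells, against 219.7, 210.4 and 122 CPM in untreated MKN1 cells, with untreated replicate 3 again inside the treated range. The log2 difference was -0.60 with an SE of 0.17 (adjusted p = 0.0532) with all libraries and -0.83 with an SE of 0.088 (adjusted p = 0.000281) without untreated replicate 3. SRSF4 had 74.2, 60.9 and 74.1 CPM in treated MKN1 cells, against 97.1, 99.9 and 66.1 CPM in untreated MKN1 cells, and its log2 difference was -0.33 with an SE of 0.14 (adjusted p = 0.186) with all libraries and -0.50 with an SE of 0.10 (adjusted p = 0.00748) without replicate 3. For these 2 genes too, untreated replicates 1 and 2 were above every treated library.

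The other 5 genes did not pass the test in MKN1 with or without untreated replicate 3. SRSF3 averaged 267 ± 13.9 CPM in treated and 292 ± 52.6 CPM in untreated MKN1 cells, a log2 difference of -0.13 (adjusted p = 0.577) with and -0.27 (adjusted p = 0.0858) without that library. SRSF1 averaged 231 ± 48.0 CPM in treated and 255 ± 49.4 CPM in untreated MKN1 cells, a log2 difference of -0.14 (adjusted p = 0.634) with and -0.29 (adjusted p = 0.198) without it. SRSF10 averaged 159.7 ± 23.1 CPM in treated and 174 ± 43.8 CPM in untreated MKN1 cells, a log2 difference of -0.12 (adjusted p = 0.755) with and -0.32 (adjusted p = 0.218) without it. SRSF11 averaged 138 ± 31.1 CPM in treated and 136 ± 35.6 CPM in untreated MKN1 cells, where the log2 difference was 0.015 (adjusted p = 0.974) with and -0.18 (adjusted p = 0.48) without it. SRSF9 had 96.0, 81.6 and 96.0 CPM in treated MKN1 cells, against 83.8, 88.4 and 93.8 CPM in untreated MKN1 cells. These groups overlapped, and the 95% interval of the log2 difference ran from -0.18 to 0.26. SRSF9 was at a log2 difference of 0.042 (adjusted p = 0.85) with and 0.082 (adjusted p = 0.652) without untreated replicate 3.

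**Figure D2:**
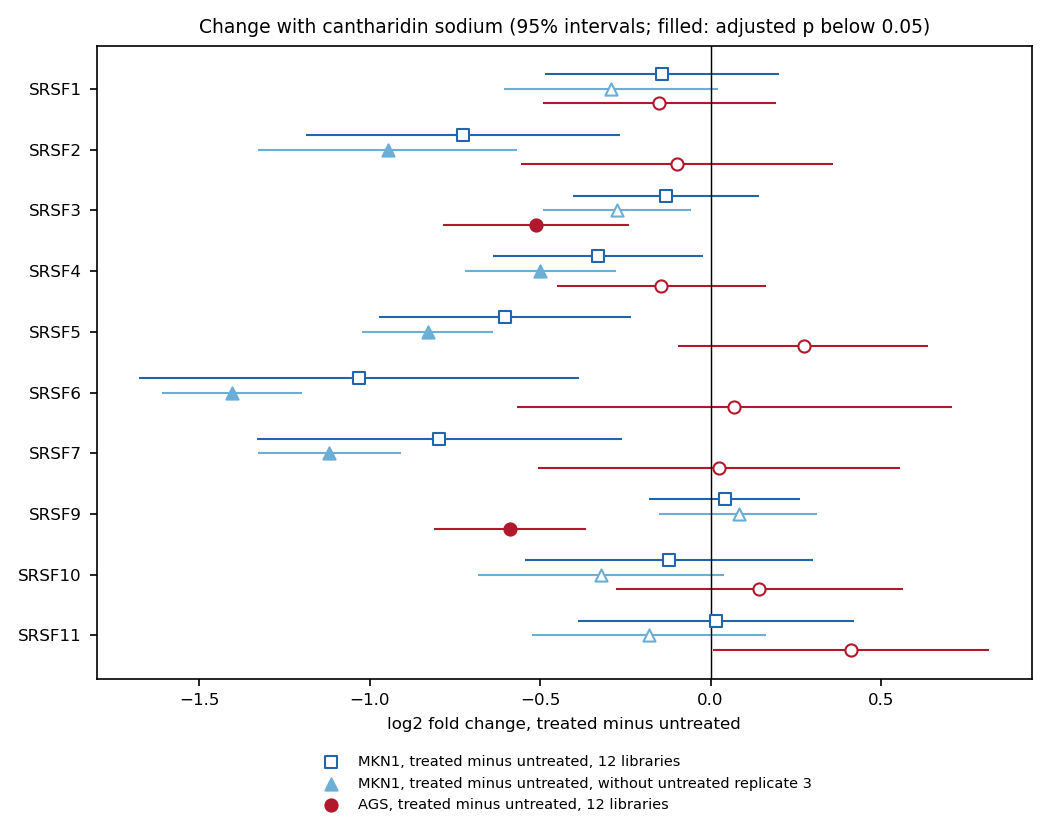
Log2 fold change of each SR gene, treated minus untreated, with 95% intervals, for MKN1 with all libraries (squares), MKN1 without untreated replicate 3 (triangles) and AGS (circles); filled symbols have an adjusted p below 0.05. SRSF6 and SRSF7 lie furthest to the left in MKN1, and SRSF9 and SRSF3 are the called genes in AGS.

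The effect of treatment differed between the lines for 2 of the 10 genes, by the interaction contrast of MKN1 minus AGS. SRSF9 was higher in this contrast, at 0.63 with an SE of 0.14 (adjusted p = 0.0118), with a log2 difference of 0.042 in MKN1 and -0.59 in AGS cells. SRSF5 was lower, at -0.88 with an SE of 0.24 (adjusted p = 0.0272), with a negative log2 difference in MKN1 and a positive one in AGS cells, neither of which passed its own test over 12 libraries. Of all tested genes 15.7% were called in this contrast, 8.38% higher and 7.3% lower. SRSF9 was called under each of the alternatives run, with an adjusted p of at most 0.0405. The SRSF5 call was lost, at adjusted p values of 0.0534 to 0.0641, without any 1 of the 6 AGS libraries, of untreated MKN1 replicates 1 or 2, or of treated MKN1 replicate 3.

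Without untreated MKN1 replicate 3, 5 SR genes were called for a difference in effect between the lines. In that fit 22.2% of all tested genes were called in either direction and 10% lower. SRSF6 was then at -1.47 with an SE of 0.13 (adjusted p = 5.44e-05), SRSF7 at -1.14 with an SE of 0.13 (adjusted p = 0.000218), SRSF5 at -1.10 with an SE of 0.12 (adjusted p = 0.000172) and SRSF2 at -0.85 with an SE of 0.24 (adjusted p = 0.0238), all lower in MKN1 minus AGS. SRSF9 remained higher, at 0.67 with an SE of 0.14 (adjusted p = 0.00666). With all libraries the SRSF6 difference was not called in the edgeR fit (DESeq2's Wald test gave an adjusted p of 0.039). Its value was -1.10 (adjusted p = 0.0926), and the SRSF7 difference was -0.82 (adjusted p = 0.128). SRSF1 had nearly equal log2 fold changes in the lines, -0.14 in MKN1 and -0.15 in AGS, and the 95% interval of their difference was -0.48 to 0.49.

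Between the untreated lines, 5 of 10 SR genes were lower in MKN1 than in AGS and none higher, where 66.3% of all tested genes were called and 31.4% were lower. SRSF3 had 332, 311 and 233 CPM in untreated MKN1 cells, against 562, 515 and 576 CPM in untreated AGS cells, a log2 difference of -0.92 with an SE of 0.13 (adjusted p = 2.96e-05). SRSF9 had the same direction, with 83.8, 88.4 and 93.8 CPM in untreated MKN1 cells, against 132, 128 and 149.5 CPM in untreated AGS cells, a log2 difference of -0.62 with an SE of 0.10 (adjusted p = 0.000129). SRSF11 was at -0.71 with an SE of 0.19 (adjusted p = 0.0047), SRSF1 at -0.67 with an SE of 0.16 (adjusted p = 0.00229) and SRSF5 at -0.65 with an SE of 0.17 (adjusted p = 0.00419). For these 5 genes the MKN1 libraries lay below all AGS libraries, and for 0 SR genes above. Of all 20280 tested genes, 7011 were below and 7463 above, which makes 71.4% without overlap in either direction. Without untreated MKN1 replicate 3 all 5 were still lower, from -0.77 for SRSF3 to -0.43 for SRSF5.

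SRSF6 and SRSF7 lay above every AGS library in 2 of the 3 untreated MKN1 libraries, replicates 1 and 2, whose values are given above. With replicate 3 the log2 difference was 0.69 (adjusted p = 0.0556) for SRSF6 and 0.26 (adjusted p = 0.361) for SRSF7. Without it both were called higher in MKN1, at 1.06 (adjusted p = 6.83e-07) for SRSF6 and 0.58 (adjusted p = 0.000166) for SRSF7. In that fit 7 SR genes were called, 2 higher and 5 lower, against 65.2% of all tested genes in either direction and 30.7% lower. DESeq2's Wald test called SRSF6 higher with all libraries (0.74, adjusted p = 0.0173). The edgeR fit also did so with DESeq2 size factors (adjusted p = 0.0363), upper-quartile factors (0.0355) and a 5 CPM filter (0.0414). The same held with the GC and length trend removed (0.0182). SRSF6 was not called with library totals alone, limma voom, no filter on low counts, a replicate block or only those groups fitted. SRSF2, SRSF4 and SRSF10 did not pass the edgeR test in either fit.

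Between the treated lines, which do not involve the library that stood apart, 6 of 10 SR genes were lower in MKN1 and none higher, where 68.1% of all tested genes were called and 31.4% were lower. SRSF5 differed most, with 127, 121 and 115 CPM in treated MKN1 cells, against 344, 346 and 359 CPM in treated AGS cells, a log2 difference of -1.53 with an SE of 0.17 (adjusted p = 4.21e-06) and a fold of 0.347. SRSF11 had 169, 138 and 106 CPM in treated MKN1 cells, against 287, 297 and 305 CPM in treated AGS cells, a log2 difference of -1.11 with an SE of 0.19 (adjusted p = 0.00017). SRSF1 was at -0.66 with an SE of 0.16 (adjusted p = 0.00236) and SRSF3 at -0.53 with an SE of 0.13 (adjusted p = 0.00214). The calls of SRSF2, at -0.55 with an SE of 0.21 (adjusted p = 0.034), and SRSF4, at -0.36 with an SE of 0.14 (adjusted p = 0.037), were lost without any 1 of the treated AGS libraries or without treated MKN1 replicate 2, where their adjusted p was 0.0515 to 0.135. Both calls were also lost with upper-quartile factors, with no filter on low counts and with a filter at 5 CPM, and that of SRSF4 with DESeq2's factors, with its Wald test and with library totals alone. With a GC and length trend removed, SRSF4 was at -0.011 (adjusted p = 0.95) and SRSF3 at -0.22 (adjusted p = 0.0866), so neither difference was called and that of SRSF4 was near 0. SRSF6 and SRSF7 were added to the calls, also lower, without untreated MKN1 replicate 3, which enters the shared spread. In that fit 32.5% of all tested genes were lower. Both genes were also called lower in the edgeR fit of only the treated groups (adjusted p = 0.00769 for SRSF6 and 0.00137 for SRSF7). SRSF7 was called as well without untreated MKN1 replicate 1 (adjusted p = 0.049). SRSF9 differed by 0.004 (adjusted p = 0.975), with a 95% interval of -0.22 to 0.23. In all, 8 of 10 genes had treated MKN1 libraries below all treated AGS libraries, and 0 had them above. Of all 20280 tested genes, 7112 were below and 7891 above, which makes 74% without overlap in either direction. The median log2 difference was -0.54 over the SR genes and 0.081 over all tested genes.

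**Figure D3:**
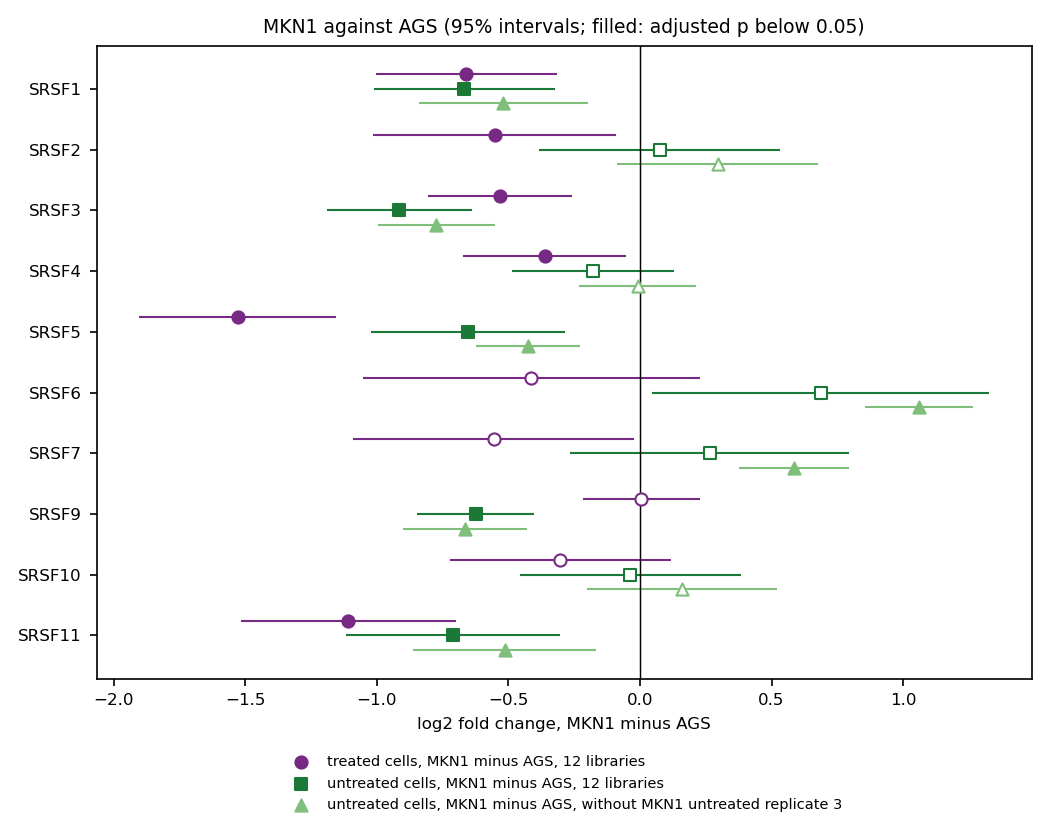
Log2 fold change of each SR gene, MKN1 minus AGS, with 95% intervals, in treated cells (circles), in untreated cells (squares) and in untreated cells without MKN1 replicate 3 (triangles); filled symbols have an adjusted p below 0.05. SRSF5 in treated cells lies furthest to the left at -1.53, and SRSF6 in untreated cells lies to the right of 0.

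The sum of the 10 genes was 1783, 1471 and 1556 CPM in treated MKN1 cells, against 2637, 2505 and 1428 CPM in untreated MKN1 cells. In AGS the sum was 2525, 2404 and 2616 CPM in treated cells, against 2659, 2580 and 2625 CPM in untreated cells. The groups overlapped in both lines. The sums of untreated MKN1 replicates 1 and 2 lay within the range of the AGS libraries, and replicate 3 had the lowest sum of the 12 libraries.

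Per kilobase of annotated exon, SRSF1 had the highest mean level in 3 of the 4 groups and SRSF4 the lowest in all 4. The length used joins the exons of every annotated transcript of a gene, retained introns included, at 3340 bases for SRSF1 and 7118 for SRSF3. The order depends on that length and does not give the number of transcripts. Before division by length, SRSF3 had a higher mean than SRSF1 in all 4 groups, such as 551 against 405 CPM in untreated AGS cells. SRSF1 was at 69.1 ± 14.4 CPM per kb in treated MKN1, 76.3 ± 14.8 in untreated MKN1, 109 ± 4.75 in treated AGS and 121 ± 5.26 in untreated AGS cells (mean ± SD, n = 3). SRSF4 was at 7.84 ± 0.861 CPM per kb in treated MKN1, 9.86 ± 2.11 in untreated MKN1, 10.1 ± 0.177 in treated AGS and 11.2 ± 0.373 in untreated AGS cells. In untreated MKN1 cells SRSF6 had the highest mean, 106 ± 53.9 CPM per kb, but its SD reached across SRSF2, SRSF1 and SRSF7. In treated MKN1 cells SRSF1, SRSF2 and SRSF6 were at 69.1 ± 14.4, 55.2 ± 14.8 and 51.8 ± 2.15 CPM per kb in that order. The SD of SRSF2 reached across the means of SRSF1 and SRSF6, while the SDs of SRSF1 and SRSF6 did not meet. In untreated AGS cells SRSF2 (86.8 ± 3.53) and SRSF3 (77.4 ± 4.45 CPM per kb) followed SRSF1. In treated AGS cells SRSF3, at 54.2 ± 2.83 CPM per kb, ranked below SRSF6 (69.0 ± 3.42) and SRSF5 (65.2 ± 1.47). An exon overlap with AC015813.2 and AC015813.5 covers 60.7% of SRSF1, and these genes were at most 3.29 CPM in any library. How reads in shared exons were counted is not known. Its effect on the levels per kilobase of SRSF1, SRSF2 and SRSF9 was not tested.

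**Figure D4:**
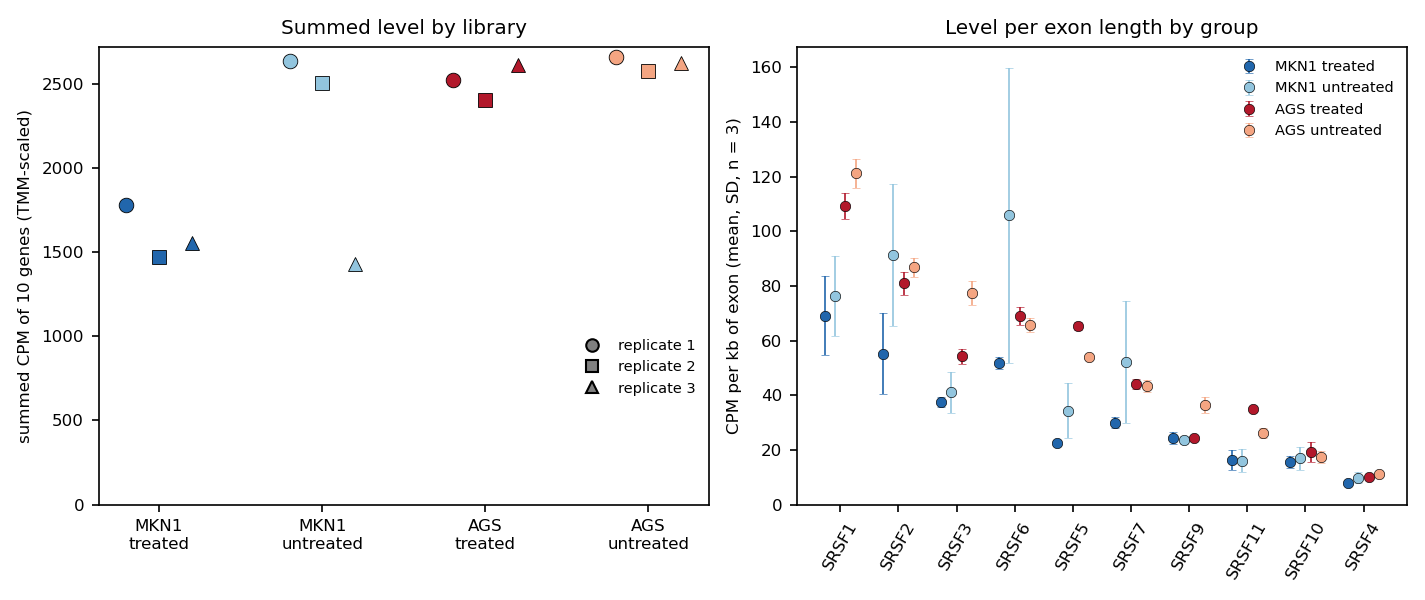
Left, summed TMM-scaled CPM of the 10 SR genes in each library, from 0; right, mean CPM per kb of exon with SD (n = 3) for each gene and group, in the order of untreated AGS cells. Untreated MKN1 replicate 3 has the lowest sum, 1428 CPM, and the widest SD is that of SRSF6 in untreated MKN1 cells.

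The 10 genes did not all vary together. Over the 12 libraries, with log2 CPM centred on each line's mean, SRSF6 and SRSF7 had a Pearson r of 0.987, SRSF5 with SRSF6 0.94 and SRSF5 with SRSF7 0.938. SRSF9 with SRSF11 had the lowest r of the 45 pairs, -0.647. The pairs share libraries, and untreated MKN1 replicates 1 and 2 had the highest levels of both SRSF6 and SRSF7. Out of 10236 genes with a mean of 5 CPM or more in each line, those most like the mean of the SR genes were UTP3 (r = 0.979), TSPAN8 (0.975), CPSF6 (0.975), TRA2B (0.97) and CWC15 (0.946). This ranking was not repeated without untreated MKN1 replicate 3. TRA2B is itself an RS domain splicing activator, and CPSF6 is a subunit of the machinery that cleaves mRNA 3′ ends. TRA2B had 217, 173 and 209 CPM in treated MKN1 cells, against 319, 285 and 185 CPM in untreated MKN1 cells. Its log2 difference in MKN1 was -0.40 (adjusted p = 0.165) with all libraries and -0.60 (adjusted p = 0.00452) without untreated replicate 3.

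The 6 related lists below were given the same fit, and all 8 of their genes called in MKN1 kept their call and direction without untreated MKN1 replicate 3. In that fit the counts in AGS were 2 higher and 3 lower for other RS domain genes, 3 and 1 for the kinase list, 0 and 8 for hnRNP genes, 0 and 11 for splice site recognition, 2 and 4 for decay and 2 and 3 for export. Of all tested genes, 11.9% were higher and 14.6% lower in AGS in that fit. The list counts below are read against 9.21% of all tested genes higher and 11.6% lower in AGS, and 2.8% higher and 3.9% lower in MKN1. Without untreated MKN1 replicate 3, 7.5% were higher and 7.6% lower in MKN1.

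Among 13 genes for SR protein kinases, protein phosphatase 1 subunits and the SR importer, 1 rose and 1 fell in AGS, and 0 rose and 1 fell in MKN1. CLK2, a nuclear kinase of SR proteins, fell in MKN1 cells and rose in AGS cells. It had 20.9, 15.9 and 21.6 CPM in treated MKN1 cells, against 32.4, 31.2 and 39.3 CPM in untreated MKN1 cells, a log2 fold change of -0.82 with an SE of 0.13 (adjusted p = 0.00557), and -0.71 (adjusted p = 0.00336) without untreated replicate 3. It had 81.4, 74.3 and 80.7 CPM in treated AGS cells, against 47.3, 49.6 and 47.9 CPM in untreated AGS cells, a log2 fold change of 0.71 with an SE of 0.13 (adjusted p = 0.00314). The difference of these effects, MKN1 minus AGS, was -1.53 with an SE of 0.18 (adjusted p = 0.00036), and -1.42 with an SE of 0.17 (adjusted p = 0.000245) without untreated MKN1 replicate 3. That library had the highest CLK2 level of its group and the lowest level for 9 of 10 SR genes.

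SRPK1, a cytoplasmic SR kinase, had 108, 100.3 and 83.3 CPM in treated MKN1 cells, against 74.3, 66.2 and 81.4 CPM in untreated MKN1 cells. The groups did not overlap, and the log2 difference was 0.40 (adjusted p = 0.0661) with all libraries and 0.47 (adjusted p = 0.0257) without untreated replicate 3. PPP1CA, a catalytic subunit of protein phosphatase 1, had 116, 111 and 112 CPM in treated AGS cells, against 167, 154 and 207 CPM in untreated AGS cells, and fell, at a log2 fold change of -0.64 with an SE of 0.14 (adjusted p = 0.00827). Without untreated MKN1 replicate 3, 2 genes of this list rose in MKN1 (SRPK1 and SRPK2) and 2 fell (CLK2 and DYRK1A).

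Of 27 other RS domain genes, 2 rose and 2 fell in AGS, and 0 rose and 1 fell in MKN1. NKTR, a cyclophilin with an RS domain, had 168, 188 and 186 CPM in treated AGS cells, against 108, 99.2 and 77.8 CPM in untreated AGS cells, and rose by 0.93 with an SE of 0.19 (adjusted p = 0.00556). SCAF1, an RS protein that binds the tail of RNA polymerase II, fell in AGS, at a log2 fold change of -0.69 with an SE of 0.15 (adjusted p = 0.00824). SRRM2, a scaffold of nuclear speckles, had 258, 215 and 293 CPM in treated MKN1 cells, against 413, 432 and 298 CPM in untreated MKN1 cells, a log2 fold change of -0.58 with an SE of 0.15 (adjusted p = 0.0377). Without untreated MKN1 replicate 3 it was at -0.73 (adjusted p = 0.00336). THRAP3 had a log2 difference of -0.42 (adjusted p = 0.0646) in MKN1 with all libraries and fell without that library, at -0.51 (adjusted p = 0.0178). In that fit 9 of the 27 fell in MKN1 and none rose, THRAP3, TRA2A, TRA2B and SRRM2 among them. The median over the 27 in MKN1 was -0.13 with and -0.28 without that library.

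The genes for recognition of splice sites by U1 and U2 particles, which SR proteins assist, were lower in treated AGS cells for 9 of 21 and higher for none, where 11.6% of all tested genes were lower. The list had a median log2 fold change of -0.31 in AGS, against -0.011 over all tested genes. U2AF2, the large U2AF subunit, had 162, 148 and 165 CPM in treated AGS cells, against 274, 260.3 and 269.5 CPM in untreated AGS cells, a log2 fold change of -0.76 with an SE of 0.16 (adjusted p = 0.00708). SF3B4, of the U2 particle, had a log2 fold change of -0.46 with an SE of 0.10 (adjusted p = 0.00935) in AGS. In MKN1 none of the 21 passed the edgeR test, 6 had an unadjusted p under 0.05, and 2 fell (U2AF1 and PUF60) without untreated replicate 3. SNRPA, of the U1 particle, had a log2 difference of 0.42 (adjusted p = 0.0516) in MKN1, and 0.37 (adjusted p = 0.0661) without that library.

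The hnRNP genes encode RNA-binding proteins that often oppose SR proteins at exons. Of 27, 6 fell and none rose in AGS, and 2 fell and 1 rose in MKN1. HNRNPM fell in AGS, at -0.56 with an SE of 0.11 (adjusted p = 0.00405), as did HNRNPL, at -0.45 with an SE of 0.12 (adjusted p = 0.0178). HNRNPA0 fell in MKN1, at -0.54 with an SE of 0.12 (adjusted p = 0.0229), and in AGS, at -0.46 with an SE of 0.12 (adjusted p = 0.0181). Its MKN1 value without untreated replicate 3 was -0.51 (adjusted p = 0.0212). HNRNPDL had 360, 356 and 286 CPM in treated MKN1 cells, against 251, 228 and 211 CPM in untreated MKN1 cells, and rose by 0.54 with an SE of 0.11 (adjusted p = 0.0162), or by 0.48 (adjusted p = 0.018) without untreated replicate 3. In MKN1 3 hnRNP genes fell and 2 rose without untreated replicate 3.

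Of 18 genes of nonsense-mediated decay and the exon junction complex, 1 rose and 4 fell in AGS, and 1 rose and 1 fell in MKN1. SMG1, the kinase of the decay factor UPF1, rose in both lines, at 0.47 (adjusted p = 0.0317) in MKN1 and 0.37 (adjusted p = 0.0396) in AGS. SMG9, its partner, fell in AGS at -0.76 (adjusted p = 0.00342). MAGOH, of the exon junction core, fell in MKN1 at -0.46 (adjusted p = 0.0442). Without untreated replicate 3, SMG1 was at 0.44 (adjusted p = 0.0354) and MAGOH at -0.59 (adjusted p = 0.00373) in MKN1, and 2 genes of this list rose and 3 fell in MKN1.

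Of 12 mRNA export genes, 1 rose and 3 fell in AGS, and 0 rose and 1 fell in MKN1. DDX39A, an export helicase, had 64.2, 59.5 and 74.0 CPM in treated AGS cells, against 141, 129 and 158 CPM in untreated AGS cells, a log2 fold change of -1.11 with an SE of 0.14 (adjusted p = 0.000513). Its relative DDX39B rose in AGS at 0.33 (adjusted p = 0.046), and ALYREF, an export adaptor, fell at -0.54 (adjusted p = 0.025). THOC6, of the THO complex, had 7.10, 7.12 and 6.79 CPM in treated MKN1 cells, against 11.9, 16.6 and 15.5 CPM in untreated MKN1 cells, a log2 fold change of -1.06 with an SE of 0.14 (adjusted p = 0.00207), and -1.02 (adjusted p = 0.00105) without untreated replicate 3. In MKN1 1 export gene rose and 2 fell (THOC6 and DDX39B) without untreated replicate 3. DDX39B was not called in MKN1 with all libraries. Without that library it was at -0.44 in MKN1 (adjusted p = 0.0102). Its difference of effects, MKN1 minus AGS, was then -0.77 (adjusted p = 0.00185).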

How the data were processed

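Per the labels' protocols, TRIzol was used to extract RNA and the NEBNext Ultra kit, which does not mark strand, to make libraries. The aligner was HISAT2 2.0.4 and the build hg38/GRCh38, per the submitters' processing notes. The sources used here do not name the counting tool, its annotation or its strand setting. Raw counts of reads for each Ensembl gene were deposited, without normalization.

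Counts of all 12 libraries were modelled with edgeR 4.0.16 in R 4.3.3, with filterByExpr over 4 groups (20280 genes kept), TMM factors and quasi-likelihood F tests. Contrasts compared treated with untreated cells in each line, the difference of these effects, and MKN1 with AGS. P-values were Benjamini-Hochberg adjusted over every gene tested, and the threshold was 0.05. SE is the standard error of the fit, which had 8 residual degrees of freedom. The script was tested on simulated data. Alternatives used DESeq2 1.42.0, limma 3.58.1, other scalings and filters, and left out each library. Floors of 3 counts stand for 0.058 to 0.105 CPM and cover counting error only.

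All 10 SR genes are named, then the 2 genes with the smallest adjusted p in AGS and in MKN1 from each of 6 related lists, and the 5 genes most like the SR mean; names beyond these were chosen after their values were seen. The members and lists were chosen with earlier results of these data known. Symbols came from a current gene name table and positions from GENCODE release 29. No pair of libraries of a group agreed within counting noise (chi-square per degree of freedom of 9.78 or more).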

Additional observations from a re-analysis of the deposited data

Results flagged for a closer look

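The response of SRSF5 to cantharidin sodium differed between the lines by the interaction contrast, at a log2 difference of -0.875, MKN1 minus AGS (adjusted p = 0.0272, edgeR quasi-likelihood test). The log2 difference was -0.60 in MKN1 (adjusted p = 0.0532) and 0.27 in AGS (adjusted p = 0.273), neither called over 12 libraries. The call of SRSF5 in the contrast was lost in most fits without 1 library, at adjusted p values of 0.0534 to 0.0641. All treated AGS libraries were above the untreated ones, and in MKN1 untreated replicate 3, at 122 CPM, lay inside the treated range of 115 to 127 CPM.

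The response of SRSF9 differed between the lines in the other direction, at a log2 difference of 0.63 (adjusted p = 0.0118). The log2 difference was 0.042 in MKN1 and -0.59 in AGS, where all treated libraries were below the untreated ones. No group had 4 or more libraries, so single libraries were not tested as outliers within a group.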

How the results depend on the processing

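Besides the leave-one-out fits, the counts of SR genes called stayed within 1.5 times their value except in these cases. In AGS 5 genes were called, in place of 2, when only AGS was fitted. In MKN1, in place of 0, 1 was called with DESeq2 size factors (SRSF5, adjusted p = 0.0467), 4 with DESeq2's Wald test and 4 with a GC and length trend removed. Leaving out 1 library gave 1 to 4 calls in AGS, 0 to 5 in MKN1, 1 to 5 for the difference between lines, 5 to 7 between untreated and 4 to 8 between treated lines. The highest count came without untreated MKN1 replicate 3 in each of them. Of 1090 single-gene values recomputed, 29 changed sign, none of them called. With the GC and length trend removed these were, in AGS, SRSF6 (-0.056), SRSF7 (-0.074) and SRSF10 (-0.076), in MKN1 SRSF11 (-0.055), between untreated lines SRSF4 (0.016) and SRSF10 (0.169), and between treated lines SRSF10 (0.047). The SRSF1 difference was -0.007 with DESeq2 size factors and with the Wald test. SRSF10 between untreated lines was 0.023 with both, 0.04 with upper-quartile factors, 0.024 with a 5 CPM filter and 0.018 with only those groups fitted. Over the libraries left out, SRSF7 in AGS ranged from -0.022 to 0.055, SRSF11 in MKN1 from -0.18 to 0.186, the SRSF1 difference from -0.153 to 0.137, SRSF10 between untreated lines from -0.14 to 0.16, SRSF2 there from -0.055 to 0.295, and SRSF9 between treated lines from -0.033 to 0.08. The causes were not tested. Replicate numbers gave no consistent pairing: same-number deviations correlated at 0.034, 0.076 and -0.05 in AGS and 0.133, -0.053 and 0.224 in MKN1. Between different numbers the values ran from -0.127 to 0.102 in AGS and from -0.263 to 0.163 in MKN1. The highest MKN1 value, 0.224, was that of treated with untreated replicate 3, and what these libraries share was not tested. A replicate block gave 3 calls in AGS (SRSF11 added, at 0.415, adjusted p = 0.0194), 0 in MKN1, 2 for the difference, 5 between untreated and 6 between treated lines. The difference between lines has no value with only 1 line fitted. No SR gene had fewer than 1856 counts in a library, so counting error was small beside the biological coefficient of variation of 19.7%. That value is common to all tested genes and groups. Some SR genes varied far less in AGS, such as SRSF5 in untreated cells (289 ± 3.4 CPM) and SRSF4 in treated cells (89.7 ± 1.57 CPM).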
